A study of Mus musculus with 14 samples.

Results

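The SaCas9g1 experiment comprised 66 genomic regions that were read as fused to the Hao1 target after nucleofection of mouse embryonic fibroblasts (MEFs) with Staphylococcus aureus Cas9 (SaCas9) and guide g1 alone. They were all regions with a chromosome in the deposited table of this treatment, out of 730 regions in the tables of the 3 treatments. The on-target region was 1 of the 66, and the other 65 lay outside it. The labels give CF-1 MEFs that received 3 µg of SaCas9 as a ribonucleoprotein with 72 pmol of guide, and DNA was taken on day 6. The other treatments were guide g2 alone (SaCas9g2, 496 regions) and both guides together (SaCas9g1+g2, 168 regions), and untreated MEFs were the control. Per the labels there were 2 SaCas9g1, 4 SaCas9g2, 4 SaCas9g1+g2 and 4 untreated samples. The study describes the 2 SaCas9g1 libraries as technical replicates of 1 biological replicate, so their agreement or disagreement is that of 2 library preparations from 1 culture. The libraries of the other treatments likewise include technical replicates of shared cultures, and which ones share a culture cannot be told from their names, so n below counts libraries and not cultures. In the table the SaCas9g1 libraries are named g1-B-MEF and Hao1-g1B.

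CAST-Seq reads outwards from a bait primer beside the edited site and reports what DNA has become joined to it. A nuclease cut can be rejoined with rearranged sequence of the target itself, or with an end from elsewhere in the genome that arose at an off-target cut or at a break unrelated to the guide. SaCas9 cuts next to a protospacer adjacent motif (PAM), NNGRRT, where R is A or G. Hao1 encodes glycolate oxidase, a peroxisomal liver enzyme that makes glyoxylate, and its disruption is studied for primary hyperoxaluria. In the table, a hit is a distinct fusion and a read is a sequenced copy of one, so reads per hit give the mean number of reads behind a fusion. Reads are given by library throughout. Hits are given by library for called regions and for regions read in 1 library only, and otherwise as the deposited sum over both.

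The guide and the target are shown first because every other region is set against them. The site is that of the deposited alignment, on GRCm38 (mm10), plus strand, chr2:134548261-134548287, and the last 6 bases are the PAM.
g1: tccgtggatagagcttccatc
on-target site: tccgtggatagagcttccatctggaat

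The 5 regions outside the target with the highest deposited alignment score of g1 are shown next, as the closest matches to the guide by that score. In the deposited classification only the on-target region was labelled OMT, the study's term for an off-target-mediated translocation. Every region outside the target was labelled NBS. Capitals mark bases that differ from g1 or its PAM, or that have no partner in the guide. Bases missing from a site are not marked. The Paip1 and Pde1c alignments each lack 1 base of the guide, and the PAM of Paip1 is also short of a base. Each is written 5′ to 3′ on the strand of the alignment, the minus strand for all but Tmem117.
Olfr1204 region, chr2:88841913-88841941: tccTtgTaGaAaAGgAttGcatctggaat
Thsd7b region, chr1:129279024-129279053: tcAgCtggaAGgGgcttccatACcttgagG
Tmem117 region, chr15:94686218-94686245: tccTAggCCtagaCcttGAatAgagaat
Paip1 region, chr13:119438365-119438389: GccAtAAGtaCagcttccatagaCt
Pde1c region, chr6:56233755-56233780: tcTgtgTTtaACCcttGatccagaat

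The on-target site scored 22, and the 5 regions scored 7, 7, 6, 5.5 and 5 in that order (Wnt6, with fewer reads, also scored 5), while the median over the 65 regions was 3 and the lowest was -2. The Olfr1204 alignment had 6 substitutions and 2 extra bases and the PAM matched. That of Thsd7b had 4 substitutions, 3 extra bases and a PAM with 1 unmatched base. Counted from 1 at the 5′ end of g1, the substitutions of the Olfr1204 site were G4T, G7T, T9G, G11A, C14A and C17G. In a search of the reference with no gaps allowed, the fewest substitutions to g1 beside an NNGRRT PAM were 9, in the Olfr1204 and Wnt6 regions, and the median was 13. For g2, which these cells did not receive, the same search gave a minimum of 8 and a median of 12. Of the 65 regions, 16 were closer to g1, 34 closer to g2 and 15 equal. When only the bin aligned in the deposited table was searched, 28 regions were closer to g1.

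The on-target region took most of the material in both libraries. It spanned 16.5 kb, with 610953 reads from 1386 hits in g1-B-MEF and 601474 reads from 1824 hits in Hao1-g1B. Outside it lay 4.87% of the 642216 reads of g1-B-MEF (exact Clopper-Pearson 95% interval 4.82% to 4.92%) and 14.1% of the 700555 reads of Hao1-g1B (14.06% to 14.2%). By hits the order was the other way round, with a difference that did not pass 0.05 over all regions. Hits of the 2 libraries are separate in the values used here for all but 4 of the 65 regions, and every way of dividing those 4 left 200 to 207 hits outside the target in g1-B-MEF (12.6% to 12.99% of its hits) and 224 to 231 in Hao1-g1B (10.9% to 11.2%). Over these possibilities Fisher's exact test (two-sided) gave an odds ratio of 1.14 to 1.22 and p = 0.063 to 0.21. When the comparison was limited to the 4 called regions outside the target, 103 of 1489 called hits lay there in g1-B-MEF, 6.92% (5.68% to 8.33%), and 80 of 1904 in Hao1-g1B, 4.202% (3.35% to 5.20%), with an odds ratio of 1.69 and p = 0.00056 in the same exact test. The lower p thus holds for those 4 regions and not for the 65. Both tests compare the 2 libraries, not conditions. Intervals here and below cover counting error only and take each read or hit as independent. Reads are PCR copies of far fewer fusions, so the intervals of read shares are too narrow. By the same exact interval, a count of 0 reads allows up to 0.000574% of reads in g1-B-MEF and 0.000527% in Hao1-g1B.

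Compared with the other treatments, SaCas9g1 had the smaller share of reads outside the target. Its mean was 9.51% ± 6.56 (SD, n = 2), against 57.4% ± 6.35 (n = 4) for SaCas9g2 and 25.6% ± 8.01 (n = 4) for SaCas9g1+g2. The highest SaCas9g1 library, at 14.1%, lay below the lowest of SaCas9g2, at 48.1%, and of SaCas9g1+g2, at 15.4%. On the log2 scale of outside over on-target reads, the mean difference was -3.88 from SaCas9g2 and -1.85 from SaCas9g1+g2, and in both comparisons 0 of 8 pairs of libraries had SaCas9g1 higher. At the called sites alone and by hits, the differences were smaller, -2.18 and -1.07. The libraries then overlapped with those of SaCas9g1+g2, with 6.92% outside in g1-B-MEF against 6.32% in Hao1-g1-2B. They did not overlap with those of SaCas9g2, of which the lowest was 15.6%. Exact permutation tests (two-sided) over the libraries returned p = 0.133 for each comparison by reads (Holm-adjusted 0.267), the smallest p that 2 against 4 libraries allow. That p sets libraries against libraries, and with 1 SaCas9g1 culture the treatments themselves could not be tested. The study also annealed the first PCR at another temperature for g2 than for g1 or both guides. Guide and PCR conditions therefore cannot be told apart in the comparison with SaCas9g2. The order also held among libraries whose names begin with Hao1, with 14.1% for SaCas9g1, 33.0% for SaCas9g1+g2, and 58.8% and 60.5% for SaCas9g2. Among those whose names end in MEF it was 4.87% for SaCas9g1, 15.4% to 30.9% for SaCas9g1+g2, and 48.1% and 62.3% for SaCas9g2. What the names stand for is not given in the sources used here.

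**Figure D1:**
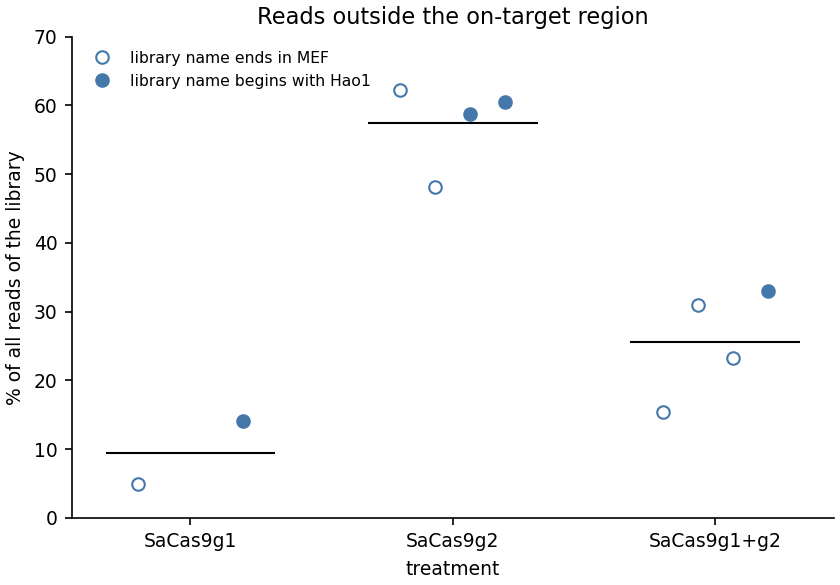
Share of reads outside the on-target region, in percent of the library, for the 2 SaCas9g1, 4 SaCas9g2 and 4 SaCas9g1+g2 libraries. Points are libraries (filled where the name begins with Hao1), horizontal lines are group means, and the exact 95% counting intervals are smaller than the points; both SaCas9g1 points (4.87% and 14.1%) lie below every point of the other treatments.

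Most of the 65 regions were small and were seen in 1 library only. They held 431 hits and 130344 reads, with a median of 3 hits and 831 reads per region, and 29 of them had 2 hits, the lowest number in the table. By width they ran from 501 to 8241 bp. In g1-B-MEF 24 regions had reads and in Hao1-g1B 49 had reads. Regions read only in g1-B-MEF numbered 16, with a median of 5 hits, and those read only in Hao1-g1B numbered 41, with a median of 2 hits. The authors' table of called sites held 5 of the 66 regions (7.58%), the on-target region and 4 others, and 6.05% of the SaCas9g2 and 6.55% of the SaCas9g1+g2 regions.

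Reads in both libraries were found for 9 of the 66 regions (13.6%), the on-target region and 8 others. Those 8 of 65 (12.3%, exact 95% interval 5.47% to 22.8%) held 198 of the 431 hits outside the target, 45.9%. The region with the most hits was on chromosome 8 (chr8:123426125-123434365), with 3555 reads from 38 hits in g1-B-MEF and 34285 reads from 60 hits in Hao1-g1B. The table names it after Galnt2, an enzyme that starts mucin-type O-glycosylation, whose start site is 3515 kb away, while GENCODE places it in introns of Def8 and Gm20388. The study covered part of this region with long-read sequencing of edited MEFs and found no off-target editing there. Its authors consider the fusions to this region most likely an artefact of the method. Whether these fusions were true joins was not tested here. On chromosome 2, a region named after Lrrc4c, a synaptic adhesion protein, had 404 reads from 48 hits in g1-B-MEF and 701 reads from 14 hits in Hao1-g1B. A neighbouring Lrrc4c region had 112 reads from 11 hits and 9 reads from 1 hit, respectively. Neither region overlaps Lrrc4c, and both lie over exons of the gene models Gm10800 and Gm10801.

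The remaining recurrent regions had fewer hits than Galnt2 and the Lrrc4c pair. The flank of Hao1, 1.73 kb beyond the on-target region, had 204 reads from 6 hits in g1-B-MEF and 2892 reads from 5 hits in Hao1-g1B. The Tmem196 region at the end of chromosome 12 had 7 and 43 reads, from 8 hits in all. A region in an intron of Ctse, which encodes the aspartic protease cathepsin E, had 6 reads in g1-B-MEF and 5179 reads in Hao1-g1B, from 3 hits in all. Recurrence of this kind rested on few fusions, as it did for the 2 regions that follow. The region named after the microRNA gene Mir101c on chromosome 9 had 2 reads and 602 reads, and that named after Asmt, the enzyme of the last step of melatonin synthesis, at the end of chromosome X had 1 read and 13 reads, each region with 2 hits in all. With at least 10 reads required in each library, 3 regions recurred, namely Galnt2, the larger Lrrc4c region and the flank of Hao1.

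**Figure D2:**
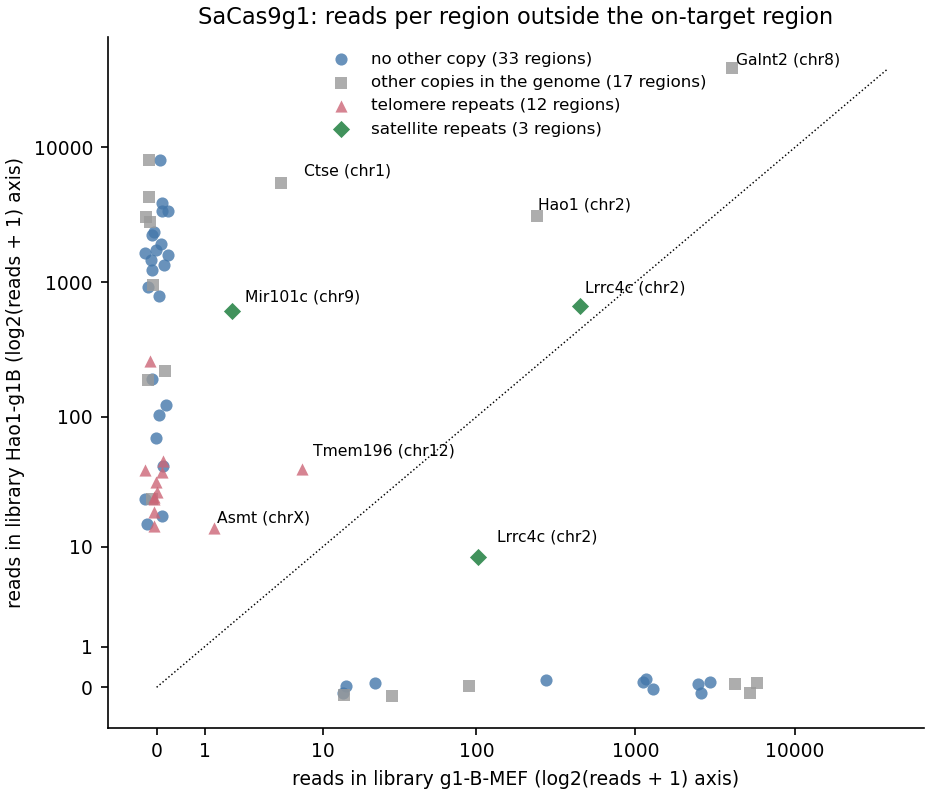
Reads of each of the 65 regions outside the target in g1-B-MEF (horizontal) and Hao1-g1B (vertical), both on log2(reads + 1) axes, with points moved slightly apart. Colour and shape give the sequence class, the dotted line marks equal reads, and most points lie along the axes, 16 with reads only in g1-B-MEF and 41 only in Hao1-g1B.

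Each of the 8 recurrent regions contained sequence that the genome holds more than once. The reference was searched with the megablast setting of BLAST, and matches of at least 100 bp at 85% identity were kept. By this search, 33 of the 65 regions matched nothing but themselves and 32 had further copies. The setting is made for close matches, so more diverged copies can have been missed among the 33. Regions with reads in both libraries were 0 of the 33 and 8 of the 32. The chromosome 8 region had 177 matches, itself included, and the larger Lrrc4c region 226. Recurrent regions were also among the widest, and a wider region has more room for a repeat. At 95% identity the flank of Hao1 had no further copy, so that 1 of 41 regions without a copy was then recurrent. Whether reads of repeated sequence were placed at their true origin was not tested.

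Among the repeats, telomere sequence stood out. Mammalian chromosomes end in arrays of the hexamer TTAGGG, which shelterin proteins bind and telomerase extends, and short arrays also occur inside chromosomes. Of the 65 regions, 12 (18.5%, exact 95% interval 9.92% to 30.03%) had at least 20 copies of TTAGGG or its complement CCCTAA per kb, and the highest density among the other 53 was 1.98 per kb. Of 5294579 windows of 500 bp in the assembly, 346 met this density (0.00653%). Windows with any unsequenced base were left out of that count, while 10 of the 12 regions held such bases and were measured over their other bases. The share of regions and the share of windows are thus not like for like. The threshold was chosen after the regions had been seen. For 10 of the 12 regions the array was the end of the chromosome, since they ran over the last assembled base of chromosomes 2, 3, 5, 10, 11, 12, 13, 14, 19 and X and reached 256 to 261 bp into the unsequenced stretch behind it. All 465 copies of the hexamer in these 10 were written TTAGGG on the plus strand, as at a right-hand chromosome end, with 80.1 to 165 copies per kb.

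The internal arrays were the Tbl1xr1 region on chromosome 3, 378 kb from the start of a corepressor subunit gene, and the Pde1c region in an intron of a calmodulin-dependent phosphodiesterase gene on chromosome 6. Tbl1xr1 had 34 reads from 9 hits and Pde1c 257 reads from 2 hits, all in Hao1-g1B. The chromosome ends had 13 to 50 reads each. Few fusions stood behind each, at most the 8 hits of Tmem196. The others at chromosome ends were named after Tcstv3 (5 hits), Ptchd3 (4 hits), Rfc3 (3 hits), Fgf14 (3 hits), and Wls, Vmn2r87, Gm14496, Asmt and Csf2ra (2 hits each). These names are of the nearest annotated gene, 4.52 to 208 kb away, and not of genes that the regions overlap.

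The 2 libraries differed in telomere repeats. All 12 regions had reads in Hao1-g1B and 2 had reads in g1-B-MEF. They took 568 of the 99081 reads outside the target in Hao1-g1B, 0.573% (0.527% to 0.622%), and 8 of 31263 in g1-B-MEF, 0.0256% (0.0111% to 0.0504%). The intervals did not overlap, but they take PCR copies as independent, and 257 of the 568 reads came from 2 hits at Pde1c. The other treatments had such regions too, 12 of 495 with SaCas9g2 and 4 of 167 with SaCas9g1+g2, which took 0.0146% to 0.0324% and 0.00141% to 0.0623% of outside reads per library. By hits the order was another. Such regions had 44 hits over the 2 SaCas9g1 libraries, 192 over the 4 SaCas9g2 libraries and 94 over the 4 SaCas9g1+g2 libraries. The SaCas9g1 mean was higher than that of SaCas9g2 by 0.277 percentage points, in 7 of 8 library pairs, and than that of SaCas9g1+g2 by 0.269, in 6 of 8, so the libraries overlapped in both comparisons. Hao1-g1B decided these differences, since without it they were 0.00275 and -0.00465 points. They also depend on the denominator, because outside reads were a smaller part of each SaCas9g1 library than of any library of the other treatments.

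**Figure D3:**
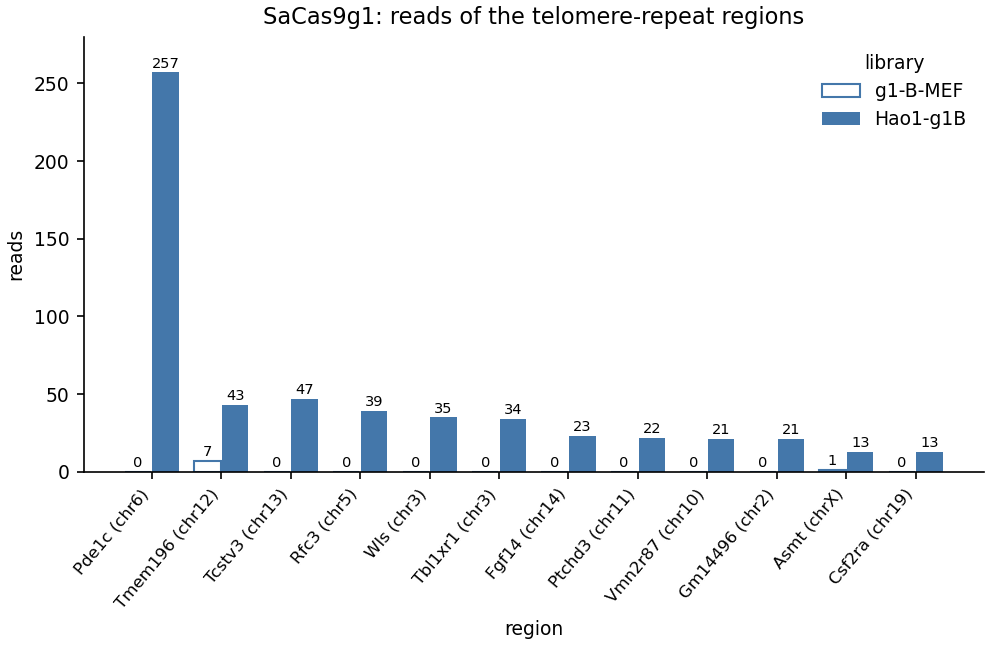
Reads of the 12 SaCas9g1 regions dense in telomere repeats in g1-B-MEF (open bars) and Hao1-g1B (filled bars), with the count above each bar. Hao1-g1B had 13 to 257 reads in every region, and g1-B-MEF had reads in 2 of them (7 and 1).

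A further kind of repeat joined the 3 exon-annotated regions with reads in both libraries, the 2 Lrrc4c regions and the Mir101c region. Mouse pericentromeres are built of the major satellite, a tandem repeat rich in A and T, and copies also lie scattered along chromosome arms. The Mir101c region repeated with a period of 233 bp at 83.5% identity, and 51.2% of its 12-base words also occurred in the larger Lrrc4c region on either strand. In the 62 regions outside these 3, the highest such share was 0.988%. The Lrrc4c regions themselves showed no clear period when compared without gaps, with a best identity of 36.9% and 38.1%, against a median of 32.6% and a highest value of 47.9% in the 50 regions without either repeat. The GC content was 36.3%, 35.2% and 35.6% in the larger Lrrc4c, the smaller Lrrc4c and the Mir101c region, against 41.7% over the assembly. A stretch of about that period from the larger Lrrc4c region and from the Mir101c region is shown on the plus strand to make the shared words visible, since the chromosome 9 copy runs in the opposite direction.
Lrrc4c region, chr2:98667026-98667259: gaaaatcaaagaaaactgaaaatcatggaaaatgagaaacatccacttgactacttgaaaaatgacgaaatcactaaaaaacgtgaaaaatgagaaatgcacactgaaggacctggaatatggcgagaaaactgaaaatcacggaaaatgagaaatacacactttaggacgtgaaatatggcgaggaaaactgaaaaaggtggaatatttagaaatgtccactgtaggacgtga
Mir101c region, chr9:3025247-3025479: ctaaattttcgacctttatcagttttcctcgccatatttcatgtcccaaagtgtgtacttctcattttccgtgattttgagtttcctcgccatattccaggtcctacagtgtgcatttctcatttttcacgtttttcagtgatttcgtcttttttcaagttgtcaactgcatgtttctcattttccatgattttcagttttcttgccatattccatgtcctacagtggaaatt

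These regions will be called satellite repeats for short, although their identity to the satellite consensus was not computed. They took 518 reads in g1-B-MEF, 1.66% of the outside reads (1.52% to 1.81%), and 1312 reads in Hao1-g1B, 1.32% (1.25% to 1.40%). By hits the Lrrc4c pair, which was among the called sites, had 59 of 1489 called hits in g1-B-MEF, 3.96% (3.03% to 5.08%), and 15 of 1904 in Hao1-g1B, 0.788% (0.442% to 1.30%). Thus g1-B-MEF had more fusions there and Hao1-g1B more reads. The same share of called hits was 1.23% to 5.03% in the SaCas9g2 and 0.323% to 5.52% in the SaCas9g1+g2 libraries, so the 3 treatments overlapped. With the other treatments the Lrrc4c pair fell in 1 joined region, which took 0.0117% to 1.23% of outside reads per SaCas9g2 library and 0.212% to 0.620% per SaCas9g1+g2 library. Compared like for like, by the Lrrc4c pair alone, the share was 1.65% in g1-B-MEF and 0.717% in Hao1-g1B. The SaCas9g1 mean was then higher than that of SaCas9g2 by 0.486 points, in 6 of 8 library pairs, and than that of SaCas9g1+g2 by 0.852 points, in 8 of 8. With the Mir101c region, which was a region of SaCas9g1 only, the differences were 0.793 and 1.16 points. The set was made of regions read in both SaCas9g1 libraries, and in the other treatments only regions overlapping it were counted. That choice favours a higher share with SaCas9g1, so these differences only describe the set. The treatments themselves could not be tested. The shares are of outside reads, which were themselves a smaller part of the library with SaCas9g1.

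Regions with telomere repeats were also read less deeply per fusion. Their median was 8.53 reads per hit (range 3.78 to 128.5), against 286.5 (3.29 to 4064) in the 33 regions with no further copy and 386 (4.33 to 2030) in the 17 other regions with copies. Over all 65 regions the median was 112. The 2 Lrrc4c regions, at 17.8 and 10.1 reads per hit, were likewise at the low end, while the Mir101c region had 302. Reads per hit on target were 441 in g1-B-MEF and 330 in Hao1-g1B.

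**Figure D4:**
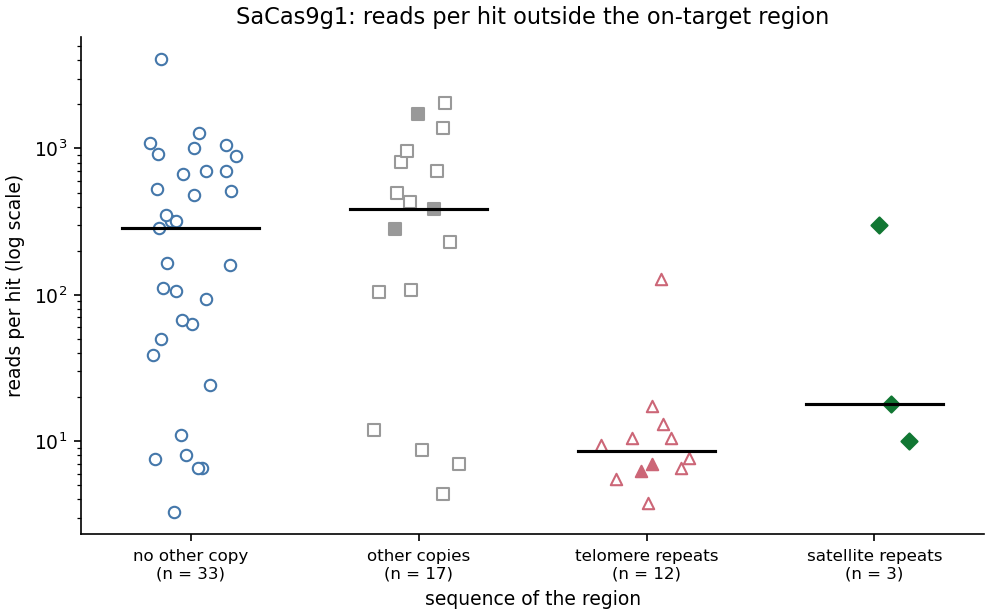
Reads per hit (log axis) of the 65 regions outside the target by the sequence they hold. Points are regions, filled where both libraries had reads, and horizontal lines are medians, from 8.53 for telomere repeats to 386 for regions with other copies.

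Among the regions read in 1 library, those with the most hits were named after Emb, Plac1 and Olfr1204, with 12, 1 and 5 matches in the genome. The Emb region on chromosome 13, 120 kb from the start of the gene of embigin, a partner of monocarboxylate transporters, had 0 reads in g1-B-MEF and 6854 reads from 16 hits in Hao1-g1B. An intron of the X-linked placental gene Plac1 had 1341 reads from 12 hits in g1-B-MEF and 0 in Hao1-g1B. The intergenic Olfr1204 region, 9.71 kb from an olfactory receptor gene, had 4997 reads from 10 hits in g1-B-MEF and 0 in Hao1-g1B. Thus this region, 1 of the 2 with the highest deposited g1 score outside the target, had reads in 1 library and 0 in the other. Its reads were 0.778% of g1-B-MEF (0.757% to 0.800%), while 0 reads in Hao1-g1B allow up to 0.000527% by the same interval. By fusions the contrast is 10 hits against 0. Of the other high-scoring regions, Thsd7b had 126 reads, Paip1 831 reads and Pde1c 257 reads in Hao1-g1B, Tmem117 had 14 reads in g1-B-MEF, and each had 0 reads in the other library.

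Further regions with many hits were in 1 library as well. The region 11.5 kb from Mir21a, the gene of microRNA miR-21, had 87 reads from 10 hits in g1-B-MEF. An intron of Man1c1, a Golgi mannosidase gene, had 2812 reads from 8 hits in g1-B-MEF. Many hits thus went with few reads at Mir21a. By reads, the highest after chromosome 8 was the region named after Mir3084-2, with 8128 reads from 2 hits in Hao1-g1B, which lies in an intron of Rrp12, a ribosome biogenesis gene. Other regions among the 10 with the most reads were introns of the calcium channel gene Cacna1d (4935 reads, 7 hits) and the protein kinase C gene Prkcd (3836 reads, 4 hits) in g1-B-MEF. In Hao1-g1B they were 1700031L13Rik (4061 reads, 2 hits), Nckap5 (3855 reads, 3 hits) and an intron of the acid-sensing channel gene Asic2 (3645 reads, 4 hits).

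By the deposited annotation, 28 of the 65 regions (43.1%, exact 95% interval 30.9% to 56.0%) were intronic, 28 distal intergenic, 5 exonic and 4 in promoters. Without Hao1-g1B the exonic and promoter shares were 12.5% each in place of 7.69% and 6.15%. Intronic regions held 200 hits, of which 98 were in the chromosome 8 region, and exonic regions 83 hits, of which 74 were in the Lrrc4c pair. Of the intergenic regions, 11 were telomere repeats. The named gene overlapped the region in GENCODE for 25 of the 28 intronic regions, and for 28 of all 65. Besides the repeats, the exonic regions were exon 3 of Paip1, a translation factor that binds the poly(A)-binding protein (831 reads, 5 hits), and exon 2 of the signalling ligand gene Wnt6 (48 reads, 2 hits), both in Hao1-g1B. The promoter regions were the flank of Hao1 and those of Gtpbp6 (1331 reads in Hao1-g1B), Mir7214 (15 reads in g1-B-MEF) and the tight junction gene Ocln (13 reads in g1-B-MEF), the last 3 with 2 hits each.

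None of 27 genes known for fragile or recurrent break sites and none of 25 cancer genes was named for a region or overlapped one in GENCODE. A deposited column that lists oncogenes within 100 kb was filled for 5 of the 65 regions. These were Cacna1d, Chn1, Vmn2r118 (oncogene Pot1b), Snrnp200 (Tmem127) and Wnt6 (Fev), with 2 to 7 hits each, and each was read in 1 library. How many regions of this number and width would lie in or near a gene of any of these lists was not tested. The counts therefore have no background to be read against.

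The regions were spread over 19 of 21 chromosomes, with 0 on chromosomes 16 and Y. Chromosome 2, which carries Hao1 and 6.68% of the assembly, had the most, 10 of 65 (15.4%), and 118 of 431 hits (27.4%), of which 74 were the Lrrc4c pair and 11 the flank of Hao1. Its share of regions was 25% without Hao1-g1B, and in Hao1-g1B alone it tied with chromosome 1 at 7 regions each. Chromosome 8 had 2 regions and 100 hits, of which 98 were the Galnt2 region. Apart from the flank, the region nearest to the target was that of Plcb1, 173 kb away, with 267 reads from 4 hits in g1-B-MEF. The remaining 8 regions of chromosome 2 lay 7316 kb or more from it.

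**Figure D5:**
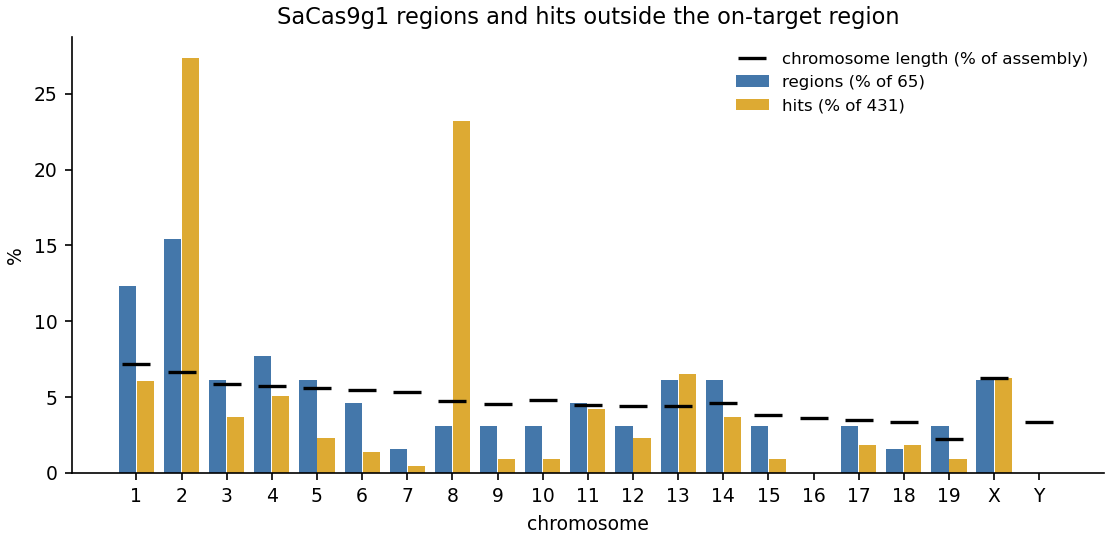
Regions (blue) and hits (yellow) outside the on-target region by chromosome, in percent of 65 regions and 431 hits, with the share of the assembly as a black dash. Chromosomes 2 (27.4%) and 8 (23.2%) hold the most hits.

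Of the 65 regions, 9 overlapped a SaCas9g2 region and 9 a SaCas9g1+g2 region by at least 1 bp, 6 of them both, and 53 overlapped neither. The flank of Hao1 also overlapped the on-target region of both other treatments, which extends further there. As a share of the other lists, regions outside the target, the overlap was 8 of 495 for SaCas9g2 and 8 of 167 for SaCas9g1+g2. The treatments share their untreated controls, so these are counts without a test. The 6 regions in all 3 treatments were the chromosome 8 region, the Lrrc4c pair, the flank of Hao1, Mir21a and Ctse. With SaCas9g2 only, the chromosome ends named after Rfc3, Fgf14 and Gm14496 were shared. With SaCas9g1+g2 only, Mir7214, Tmem117 and Ocln were shared.

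For several shared regions the reads lay in libraries of 1 naming style. The Mir21a region had 87 reads in g1-B-MEF, 128 and 936 reads in the 2 SaCas9g2 libraries whose names end in MEF, and 0, 114 and 59 reads in the 3 such SaCas9g1+g2 libraries, while all 4 libraries named Hao1 had 0 reads, Hao1-g1B included. The Mir7214 region had 15 reads in g1-B-MEF beside 12622 reads in 1 SaCas9g1+g2 library (g1-2-B-MEF), and 2, 3 and 0 in the other SaCas9g1+g2 libraries. Tmem117 (14 reads beside 8226) and Ocln (13 reads beside 6524) had the same arrangement, with the larger value in the same library. The Ctse region differed in that Hao1-g1B had 5179 reads, while the other 3 libraries named Hao1 had 0, and the highest values were 45837 reads in g2-A-MEF and 14449 in g1-2-old-MEF. Its 6 reads in g1-B-MEF stood beside these. The deposited column on barcode hopping read "no" for all 66 SaCas9g1 regions, and whether reads passed between libraries was not tested.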

How the data were processed

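CAST-Seq libraries of MEFs were read with 150 nt reads. By the submitters' processing notes the authors used Bowtie2 2.3.4.2 and bedtools 2.27.1, and the notes name mm10 beside a human build. The authors joined fusions into regions and deposited counts of reads and hits without normalization, and a score for the guide's alignment in a bin of the region. Positions fit mm10 (GRCm38), the build of the reference and the GENCODE annotation used here. The deposited p-values and their adjusted values compare libraries with untreated cells or guide alignments with random sequence, and were not used. Untreated counts were not analysed here. Blank lines (2 in the SaCas9g1 table) were left out, and 0 columns belonged to other samples.

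Shares were given exact Clopper-Pearson intervals, and libraries of the treatments were compared by exact permutation tests over libraries with Holm adjustment over 2 comparisons. Copies came from BLAST 2.17.0 (megablast, E-value 1e-20) and sequences from pysam 0.24.0. Tests used SciPy 1.17.1 and Python 3.11.15. The search was checked on simulated sites. Library columns carry no replicate number, so they were grouped by treatment, and 1 measure per library was taken from each table: reads from the tables of all regions, with the authors' hits summed over libraries, and hits from the tables of called sites. Named were regions with reads in both libraries, the 10 with the most hits and the 10 with the most reads, the 5 best scores, promoter and exon regions, and listed genes; others were added after their values were seen. Members and lists were chosen with earlier results of these data known. Regions dense in telomere repeats, copies and satellite repeats were defined after seeing the data. SaCas9g2 and SaCas9g1+g2 libraries held 459219 to 1716787 reads. The sequences of the telomere-repeat regions are not reported here. Alternatives are given in the closing section.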

Additional observations from a re-analysis of the deposited data

Results flagged for a closer look

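The g1-2-A-MEF library stood apart from the other 3 SaCas9g1+g2 libraries in the satellite-repeat share of outside reads, at 0.620% against 0.212% to 0.260%, a gap past the 95% critical value of Dixon's test. Chance flags about 1 in 20 such groups, and 6 were examined. This library also had the fewest reads, 459219.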

How the results depend on the processing

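Of 128 alternative values of 23 results, 111 kept their direction, their side of the threshold or their size. For the differences between treatments, p could not pass 0.05 with so few libraries. Those alternatives could thus only count as kept or reversed, whatever their size, and the tally says little about them. With each library left out in turn, the difference in outside reads ran from -4.72 to -3.04 (SaCas9g2) and from -2.70 to -1.01 (SaCas9g1+g2), the telomere-repeat difference from 0.00275 to 0.550 and from -0.00465 to 0.543 points, and the satellite difference from 0.564 to 0.971 and from 0.993 to 1.33 points. The satellite difference includes the Mir101c region, which was a region of SaCas9g1 only. With at least 3 hits, 36 regions remained outside the target, and with either SaCas9g1 library left out 24 to 49. Leaving out a library gave 2 to 12 telomere-repeat regions and 5 to 9 regions shared with SaCas9g1+g2. With 10 reads in each library 3 regions recurred, and at 95% identity 1 region without a copy recurred. Over called sites, 5.93% of the reads and 4.202% of the hits of Hao1-g1B lay outside the target, and 0.695% and 6.92% of those of g1-B-MEF, and the differences between treatments by these hits were -2.18 and -1.07. The difference between the SaCas9g1 libraries in outside hits passed 0.05 in Fisher's exact test at called sites (p = 0.00056) and not over all regions (p = 0.063 to 0.21), where more regions entered. At called sites the Lrrc4c pair held 59 of these hits in g1-B-MEF and 15 in Hao1-g1B. The intronic share was 66.1% by reads, the intergenic share 30.4% by hits and 28.4% by reads, and the exonic share 19.3% by hits and 2.08% by reads. The promoter share was 2.78% with at least 3 hits and 4.08% to 12.5% with a library left out. Chromosome 2 had 27.4% of hits and, with a library left out, 14.3% to 25% of regions. In the deposited bin, 28 regions were closer to g1 than to g2. An overlap of 50% of both regions was met by 5 regions with SaCas9g2. The cause of these changes was not tested. Alternatives for telomere, satellite and copy classes, for hits at called sites, for the Lrrc4c pair alone and for counts without a library were chosen after seeing the data. Hits in place of reads over all regions were compared, within bounds, between the SaCas9g1 libraries and not between treatments. No paired analysis was possible because the library columns carry no replicate number. The 2 libraries of 1 culture and the few hits per region limit every comparison.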
